A study of Homo sapiens with 10 samples.

Results

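Metallothioneins and the zinc transporter families SLC30 and SLC39 were examined together with MTF1, the zinc-sensing transcription factor. The members were all rows of the expression table whose symbol began with MT1 and a letter, or was MT2A, MTF1, SLC30A with a number or SLC39A with a number. This gave 31 of 16734 genes, namely 9 metallothioneins, MTF1, 9 SLC30 genes and 12 SLC39 genes. SLC30A8, SLC39A2 and SLC39A12 were not analysed here. The cells were MIA PaCa-2, an established line from a human pancreatic ductal adenocarcinoma, with no added gene or deletion named in the labels. The treated group, written HPC, stood for 24 h in 10 µM hydroxyprogesterone caproate, a synthetic progestin. The control group had the same volume of the solvent DMSO for the same time. Each group had 5 libraries of poly(A) RNA, called biological replicates in the labels. As no day or batch is given, p-values below measure only how these libraries spread, which may be technical in part.

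Metallothioneins are small, cysteine-rich proteins of the cytosol that bind zinc and copper and buffer the free ions. SLC30 proteins (also called ZnT) move zinc out of the cytosol, across the plasma membrane or into organelles and vesicles, and SLC39 proteins (also called ZIP) move it into the cytosol. MTF1 binds zinc through its zinc fingers, enters the nucleus and binds metal response elements, short sites in the promoters of metallothionein genes and of SLC30A1. Cells given extra zinc or cadmium are known for higher metallothionein and SLC30A1 transcripts. No metal was measured in this series.

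The metal response element has a core that can be read directly in the promoters of the members. It was searched as TGCACNC or TGCGCNC on both strands, in the 250 bases before each RefSeq start site (GRCh38.p14). The 2 forms cannot both match at 1 place on 1 strand. The RefSeq table held 24 of the 31 members, and MT1A, MT1E, MT1F, MT1G, MT1M, SLC39A4 and SLC39A14 were not among them. The 4 windows below are shown because 3 of these genes carried large differences between the groups, while MT1H, with the most matches, had almost no reads. Each is written 5′ to 3′ along the gene's own strand, and capitals mark a match to the core, which reads GNGTGCA or GNGCGCA where it lies on the other strand.
MT2A, chr16:56608334-56608583, plus strand: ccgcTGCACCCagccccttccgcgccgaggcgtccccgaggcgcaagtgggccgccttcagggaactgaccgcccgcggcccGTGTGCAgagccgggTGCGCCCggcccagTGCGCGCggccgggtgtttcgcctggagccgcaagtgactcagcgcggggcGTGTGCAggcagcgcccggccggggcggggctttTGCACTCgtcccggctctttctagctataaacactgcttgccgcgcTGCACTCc
MT1X, chr16:56682220-56682469, plus strand: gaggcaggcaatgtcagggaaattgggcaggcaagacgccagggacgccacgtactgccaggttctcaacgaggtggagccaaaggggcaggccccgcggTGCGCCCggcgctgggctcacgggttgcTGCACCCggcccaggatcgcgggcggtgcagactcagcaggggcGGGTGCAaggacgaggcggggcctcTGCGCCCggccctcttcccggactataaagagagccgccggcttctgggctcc
MT1H, chr16:56669564-56669813, plus strand: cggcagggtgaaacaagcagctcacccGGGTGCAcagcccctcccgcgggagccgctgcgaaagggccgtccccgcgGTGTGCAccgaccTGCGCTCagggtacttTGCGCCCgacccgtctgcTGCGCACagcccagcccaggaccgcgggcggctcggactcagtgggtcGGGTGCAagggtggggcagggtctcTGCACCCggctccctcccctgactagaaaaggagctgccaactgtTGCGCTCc
SLC30A1, chr1:211579162-211579411, minus strand: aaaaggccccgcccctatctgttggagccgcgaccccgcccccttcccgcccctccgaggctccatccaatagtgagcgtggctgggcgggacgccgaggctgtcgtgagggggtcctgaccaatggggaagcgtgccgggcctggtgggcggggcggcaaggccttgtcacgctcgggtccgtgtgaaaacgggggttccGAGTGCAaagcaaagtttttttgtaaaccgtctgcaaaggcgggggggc

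The core stood 7 times in the MT2A window, 4 times in that of MT1X, 8 times in that of MT1H and 1 time in that of SLC30A1. Of 34943 RefSeq windows of the same length, 24.8% held at least 1 match, 1.58% at least 3, 0.369% at least 4, 0.0315% at least 7 and 0.0172% at least 8. The fourth metallothionein in the table, MT1B, had 3 matches. Among the 9 SLC30 genes, 5 had a match in at least 1 of their windows and SLC30A2 was the only one with 3. Among the 10 SLC39 genes in the table, 5 had a match and none had more than 1 in a window. No match was found in the MTF1 window or in either window of SLC39A10. A gene with several start sites had several windows and so more room for a match. A match is a description of these letters, not a measured binding site. The MT2A window lies inside the gene model of GENCODE 29, the annotation used for gene positions below, which places the gene's start further upstream. The MT1X window overlaps its model at the 3′ end of the window. The SLC30A1 window lies wholly upstream of its model, which starts at 211578742 on the minus strand, so the bases next to that start were not searched.

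**Figure D1:**
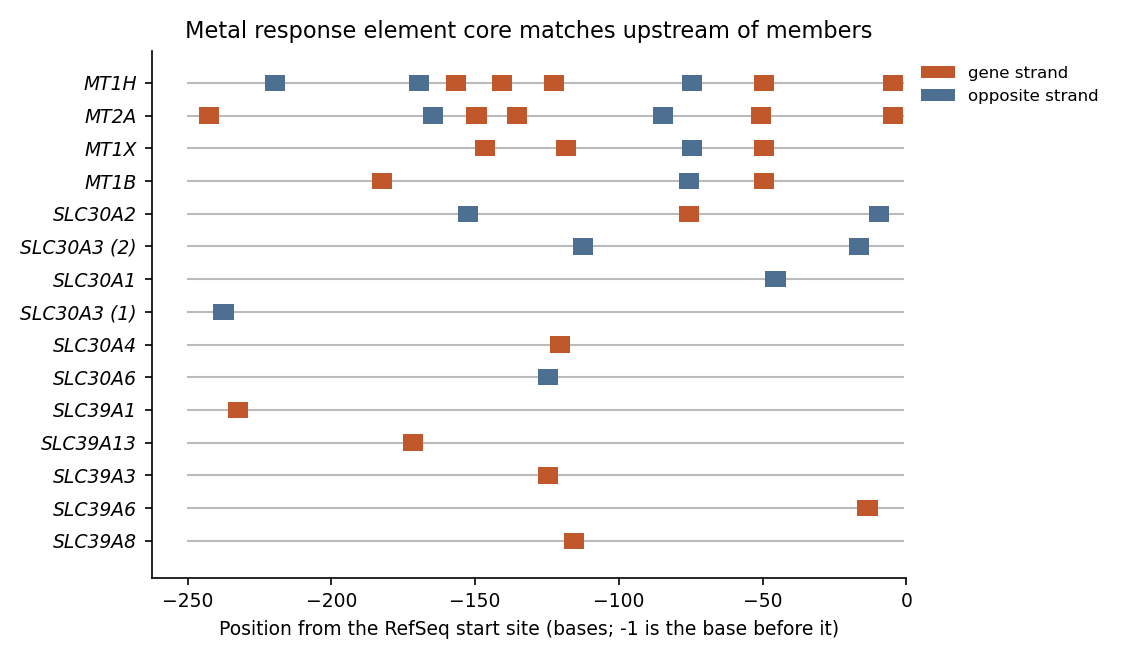
Positions of the metal response element core in the 250 bases before the RefSeq start site of the members with at least 1 match, with distance from the start site in bases on the x axis and 1 line per promoter window. Each mark is 1 match, coloured by strand, and MT1H (8 matches) and MT2A (7 matches) are the most crowded lines.

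The depth of a library, as reads recovered from its FPKM values (fragments scaled to both gene length and library size), was 71603127 to 82219086 in DMSO and 65851927 to 74477678 in HPC. Across genes, Pearson r was 0.989 to 0.994 between libraries of 1 group and 0.842 to 0.863 between groups. Tests used limma (two-sided, Benjamini-Hochberg adjustment over all 9150 tested genes) on log2(FPKM + 0.1), and fold changes are on that scale. A gene was tested where 5 or more libraries reached 1 FPKM, which 23 of the 31 members did. The treatment moved most genes: 87.7% of the tested genes passed an adjusted p of 0.05 (limma), 42.9% higher and 44.8% lower, so passing alone says little of a member. At the same threshold, 7.54% were at least 2-fold higher, 9.88% at least 2-fold lower and 1.99% at least 4-fold higher. The median log2 fold change of all tested genes was -0.01, and it moved to -0.19 when libraries were scaled to their non-mitochondrial sum (all FPKM except those of mitochondrially encoded genes), with 2929 genes higher and 5077 lower in place of 3922 and 4099. The groups did not overlap for 79.6% of the tested genes and for 20 of the 23 tested members. Of these members, 3 (MT1G, MT1M and SLC39A8) reached 1 FPKM in 1 group only, so the filter fixed their lack of overlap. The same held for 753 of all tested genes. The epithelial keratins KRT8 (51.8 and 57.7 FPKM in DMSO and HPC) and KRT18 (114 and 150 FPKM) were high, KRT19 stood at 24.0 and 10.1 FPKM and vimentin, VIM, at 695 and 333 FPKM. Another epithelial keratin, KRT7, was low, at 0.226 and 0.0352 FPKM. Of the other mesenchymal markers, ZEB1 went the other way from VIM (1.29 and 1.81 FPKM), and FN1 was near 0 (0.0112 and 0.0166 FPKM). EPCAM and CDH1, 2 defining epithelial markers, were at or near 0 in every library. The table held only 1 of 5 acinar, 2 of 5 islet and 3 of 4 leukocyte markers sought, and all 4 fibroblast markers. None of those it held reached 1 FPKM in any library. The 3 endothelial markers summed to between 1.43 and 1.53 FPKM in DMSO and between 0.0152 and 0.0368 in HPC (CDH5 alone had 1.42 and 0.0124). The part of these markers in the results was not tested. FPKM are shares of a library, and fewer cells of a type and less RNA per cell cannot be told apart in bulk RNA.

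The tested metallothionein genes were higher in HPC, and the family's summed level was 85.9 ± 10.8 FPKM in DMSO and 650 ± 23.8 in HPC (SD, n = 5). All 4 metallothioneins that reached 1 FPKM in both groups, MT2A, MT1E, MT1A and MT1X, were higher in HPC. MT1G and MT1M were also higher, but they entered the test only through their HPC libraries and so had to differ. The other members, MT1B, MT1F and MT1H, stayed under 1 FPKM in every library. Among MT2A, MT1E, MT1A and MT1X, the rises ranged from 1.84 to 3.73 in log2 fold change. All of these 4 but MT1A rose at least 4-fold, beside 1.99% of all tested genes. Metallothionein transcripts made up 0.0679% of all FPKM in DMSO and 0.504% in HPC. All 9 genes lie in 1 cluster on chromosome 16, between 56608199 and 56684196 (GRCh38, GENCODE 29), a stretch of 75998 bases.

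MT2A, the most abundant metallothionein transcript in these cells, lies at chr16:56608199-56609497. It had 52.1, 49.5, 42.3, 43.2 and 41.6 FPKM in DMSO replicates 1 to 5 and 330, 305, 330, 350 and 315 FPKM in HPC. Every HPC library was far above every DMSO library. The log2 fold change was 2.83 ± 0.064 (SE, n = 5 and 5; limma, adjusted p = 1.79e-12), a 7.14-fold rise.

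MT1E (chr16:56625475-56627112) held the next level in the family. Its DMSO values were 30.0, 28.9, 23.4, 25.3 and 20.0 FPKM, and its HPC values were 231, 221, 226, 229 and 219 FPKM. The groups did not overlap, and the HPC libraries varied less in proportion to their mean than the DMSO libraries (225 ± 4.86 against 25.5 ± 4.09 FPKM, SD, n = 5). MT1E rose by 3.15 ± 0.099 in log2 fold change (limma, adjusted p = 2.92e-10).

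MT1X (chr16:56682424-56684196) started lower and rose further than either. It had 4.17, 3.64, 3.58, 3.28 and 3.42 FPKM in DMSO and 51.2, 48.5, 49.7, 49.7 and 46.8 FPKM in HPC. The lowest HPC library was above the highest DMSO library by more than any difference within a group. The log2 fold change of 3.73 ± 0.053 (limma, adjusted p = 4.32e-15) was a 13.3-fold rise.

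MT1A (chr16:56638666-56640087) rose least among the 4 metallothioneins that reached 1 FPKM in both groups. Its DMSO values were 13.7, 9.76, 10.3, 8.21 and 8.67 FPKM and its HPC values 36.0, 35.2, 39.1, 36.1 and 32.9 FPKM. The groups did not overlap, and MT1A rose by 1.84 ± 0.12 in log2 fold change (limma, adjusted p = 2.21e-07). DMSO replicate 1 held the highest DMSO value of MT2A, MT1E, MT1X and MT1A, so the spread of the controls was in part shared between these genes.

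MT1G (chr16:56666731-56668065, the only member of the cluster on the minus strand) was low in DMSO, at 0.771, 0.501, 0.355, 0.792 and 0.736 FPKM. In HPC it had 13.1, 10.2, 10.7, 11.1 and 10.7 FPKM. These are 51 to 100 reads in a DMSO library and 1216 to 1581 in an HPC library. MT1G rose by 3.99 ± 0.19 in log2 fold change (limma, adjusted p = 1.17e-08). It was number 21 among the rises of the 9150 tested genes, but its size depended on the pseudocount: with 1 FPKM it was 2.90, below MT1X (3.45), MT1E (3.11) and SLC30A1 (3.05).

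MT1M (chr16:56632233-56633986) had 0.406, 0.303, 0.424, 0.0886 and 0 FPKM in DMSO, which is 0 to 22 reads a library. Its HPC values were 1.91, 2.93, 2.51, 2.14 and 2.00 FPKM, or 83 to 126 reads. The groups did not overlap, which the filter fixed. The size of the rise depended on the pseudocount: the log2 fold change was 3.04 ± 0.47 (limma, adjusted p = 2.13e-04) and ranged from 1.41 to 4.01 over all alternatives.

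MT1F, MT1H and MT1B were at the limit of detection. MT1F had 0 to 3 reads per DMSO library and 2 to 12 per HPC library, in all 6 and 34 reads, a ratio of 6.15 relative to the libraries' reads (95% exact interval 2.55 to 17.9, which covers counting error only). MT1H had 0 reads in every DMSO library and 0 to 4 in the HPC libraries, 11 in all. MT1B was listed at 0 in every library but 1 HPC library, which had 0.102 FPKM. MT1H stayed close to 0, and its promoter window held the most core matches of the 24 members searched. MT2A and MT1X, with 7 and 4, were abundant in HPC. A link between matches and level was not tested.

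**Figure D2:**
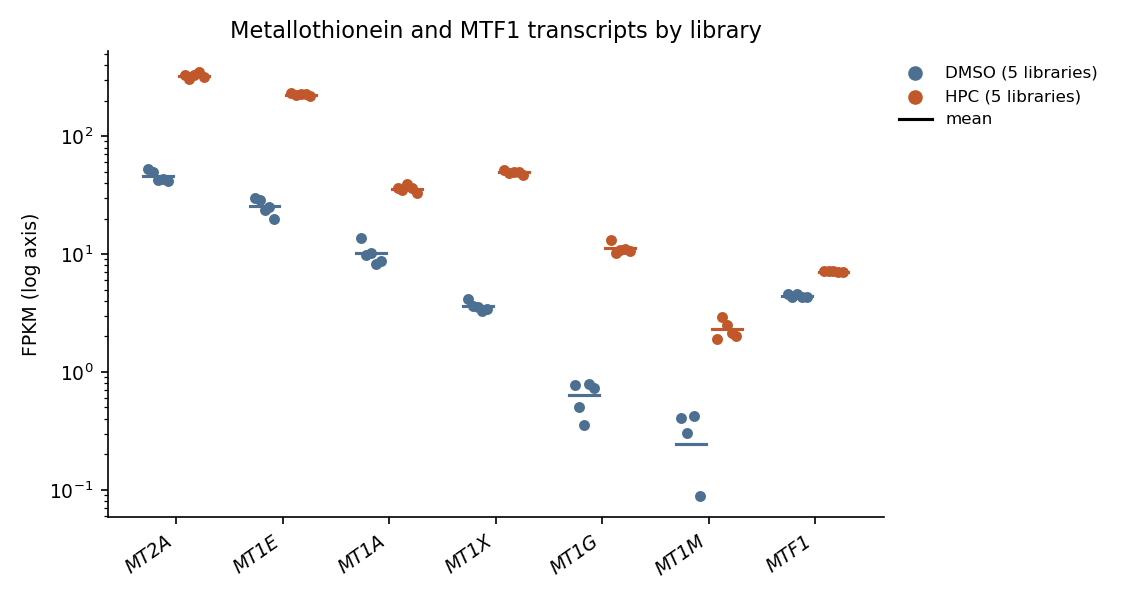
FPKM of the 6 tested metallothioneins and MTF1 in each library on a log axis, with DMSO and HPC libraries in different colours and lines at the group means. The groups do not overlap for any of the 7 genes, which the filter fixed for MT1G and MT1M. MT2A reaches 305 to 350 FPKM in HPC, and the DMSO library of MT1M at 0 FPKM cannot be drawn on the log axis.

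Metallothionein genes resemble each other, and reads can be split between them. Among the transcripts of 21 metallothionein genes and pseudogenes in GENCODE 29, no 150-base stretch, the read length, of a member occurred in another of these genes. At 50 bases, the shared part was 16.5% for MT1G, 15.8% for MT1H, 9.87% for MT1M, 7.10% for MT1E, 5.76% for MT1A, 3.64% for MT1X, 3.02% for MT2A and 1.22% for MT1F, and none was found for MT1B. MT1G shared most with MT1H, and MT1H shared most with MT1HL1. How the authors counted reads with several matches is not given in the sources used here. With the largest shared parts, the levels of MT1G and MT1H are the least certain.

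The rise was unequal within the family. Per library, the ratio of MT1X to MT2A FPKM was 0.0792 ± 0.00454 in DMSO and 0.151 ± 0.00648 in HPC (SD, n = 5). The ratio of MT1E to MT2A went from 0.555 to 0.691, while that of MT1A to MT2A went from 0.220 to 0.110. For each of the 3 ratios the groups did not overlap. An exact two-sided permutation test over 252 assignments gave p = 0.00794, the smallest possible, for each of the 5 ratios computed, also after adjustment. These pairs were chosen after their values were seen, so this p lends no support and the ratios are a description. Of the family's FPKM in DMSO and HPC, MT2A made up 53.4% and 50.2%, MT1E 29.6% and 34.7%, MT1X 4.23% and 7.57%, and MT1A 11.7% and 5.52%.

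MTF1 (chr1:37809567-37859620), the transcription factor that acts on metal response elements, had 4.58, 4.31, 4.61, 4.31 and 4.36 FPKM in DMSO and 7.15, 7.16, 7.13, 7.04 and 7.01 FPKM in HPC. The groups did not overlap and the spread within each was small. MTF1 rose by 0.67 ± 0.028 in log2 fold change (limma, adjusted p = 6.81e-11), a 1.59-fold rise. For comparison, 16.9% of the tested genes passed with a rise of at least 1.5-fold. The activity of MTF1 depends on zinc binding and location, which RNA does not show.

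Among the exporters tested, SLC30A1 had the largest rise. Of the 6 SLC30 genes tested, 3 were higher (SLC30A1, SLC30A6 and SLC30A7), 1 was lower (SLC30A9) and 2 did not pass (SLC30A4 and SLC30A5). For comparison, 42.9% of all tested genes were higher and 44.8% lower. The median log2 fold change of the 6 SLC30 genes was 0.27, beside -0.01 over all tested genes, with a range from -0.35 to 3.24. With so few genes this median was unstable: it was 0.11 when scaled to the non-mitochondrial sum, 0.04 without a filter and 0.00345 with a filter of 5 FPKM. Only SLC30A1 passed 1.5-fold in either direction, beside 16.9% of all tested genes higher and 20.3% lower.

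SLC30A1 (chr1:211571568-211578742, minus strand) encodes ZnT1, the exporter of the plasma membrane. It had 5.79, 5.74, 6.18, 5.89 and 5.45 FPKM in DMSO and 56.8, 56.6, 56.0, 52.8 and 55.4 FPKM in HPC. The lowest HPC library, 52.8, lay far above the highest DMSO library, 6.18. SLC30A1 rose by 3.24 ± 0.033 in log2 fold change (limma, adjusted p = 7.63e-16), a 9.42-fold rise and number 49 among the rises of the 9150 tested genes.

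The exporters of organelles moved little. SLC30A6 and SLC30A7, which load zinc into the Golgi and the secretory pathway, went from 2.81 ± 0.0890 to 3.83 ± 0.0791 FPKM and from 2.37 ± 0.127 to 3.25 ± 0.0825 FPKM (SD, n = 5), log2 fold changes of 0.43 and 0.44. SLC30A9, a mitochondrial transporter, fell from 10.7 ± 0.226 to 8.42 ± 0.223 FPKM, a log2 fold change of -0.35. SLC30A5, the Golgi partner of SLC30A6, had 8.10 and 8.12 FPKM (log2 fold change 0.00, limma, adjusted p = 0.930), and SLC30A4, an exporter of endosomes and vesicles, had 1.68 and 1.80 FPKM (0.10, limma, adjusted p = 0.202). Scaled to the non-mitochondrial sum, the signs of both turned negative (-0.16 for SLC30A5, which then passed as lower, limma, adjusted p = 9.08e-04, and -0.06 for SLC30A4).

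The remaining exporters were at or near 0. SLC30A3, the transporter of synaptic vesicles, had 0.303 and 0.299 FPKM in DMSO and HPC. SLC30A2 was listed at 0 in DMSO and reached at most 0.00928 FPKM in HPC. SLC30A10, a manganese exporter, was listed at 0 in every library but 1, which had 0.00459 FPKM. SLC30A2 shared the near-absence of MT1H and MT1B and also, with 3 matches, a promoter window rich in the core.

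The importers divided in both directions. Of the 10 SLC39 genes tested, 5 were higher (SLC39A14, SLC39A7, SLC39A3, SLC39A13 and SLC39A6) and 5 lower (SLC39A8, SLC39A1, SLC39A10, SLC39A9 and SLC39A4). For comparison, 42.9% of all tested genes were higher and 44.8% lower. The median log2 fold change of the 10 SLC39 genes was 0.02. It lay at -0.14 when scaled to the non-mitochondrial sum, at -0.11 without a filter and at 0.24 with a filter of 5 FPKM, where it was above that of the exporters. SLC39A8 entered the test only through its DMSO libraries and so had to differ. At 1.5-fold, 2 were higher and 3 lower, beside 16.9% and 20.3% of all tested genes.

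SLC39A14 (chr8:22367249-22434129) encodes ZIP14, an importer of the plasma membrane that carries zinc, manganese and iron not bound to transferrin. It had 12.7, 12.3, 13.0, 12.9 and 13.1 FPKM in DMSO and 40.4, 42.8, 44.3, 36.3 and 40.4 FPKM in HPC. The groups did not overlap, and HPC replicate 4 was the lowest treated library. SLC39A14 rose by 1.66 ± 0.045 in log2 fold change (limma, adjusted p = 8.54e-13), a 3.17-fold rise.

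SLC39A7 (chr6:33200445-33204439), which releases zinc from the endoplasmic reticulum into the cytosol, was the other importer past 1.5-fold upward. It had 6.18, 5.75, 6.60, 6.25 and 6.20 FPKM in DMSO and 10.6, 10.7, 10.5, 8.11 and 9.47 FPKM in HPC. HPC replicate 4 was again the lowest treated library, still above every DMSO library. SLC39A7 rose by 0.66 ± 0.070 in log2 fold change (limma, adjusted p = 1.39e-06).

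SLC39A10 (chr2:195575977-195737702), a plasma membrane importer, had the highest FPKM of the transporters in DMSO. It had 31.1, 33.1, 32.0, 33.8 and 34.3 FPKM there and 20.2, 20.3, 20.5, 19.3 and 20.6 FPKM in HPC. All HPC libraries lay below all DMSO libraries. The log2 fold change was -0.70 ± 0.030 (limma, adjusted p = 8.47e-11), a level 1.63-fold lower and number 1534 among the falls of the 9150 tested genes.

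SLC39A1 (chr1:153959099-153968184), which encodes ZIP1, a widely expressed importer, had 6.01, 5.70, 6.07, 5.58 and 5.90 FPKM in DMSO and 2.23, 2.23, 2.25, 2.38 and 2.23 FPKM in HPC. Apart from HPC replicate 4 the treated libraries were nearly equal. Its log2 fold change was -1.33 ± 0.034 (limma, adjusted p = 4.59e-13), a level 2.52-fold lower. Its gene model overlaps AL358472.7 on the same strand and CREB3L4 on the other, and whether counting used strand is not given in the sources used here.

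SLC39A8 (chr4:102251041-102431258) encodes ZIP8, the closest relative of ZIP14, which carries zinc, manganese and cadmium. It had 1.74, 1.77, 1.55, 1.66 and 1.53 FPKM in DMSO and 0.318, 0.529, 0.406, 0.436 and 0.397 FPKM in HPC. No library of 1 group reached the range of the other, which the filter fixed. SLC39A8 had a log2 fold change of -1.77 ± 0.091 (limma, adjusted p = 5.00e-10), a level 3.41-fold lower. The related pair SLC39A14 and SLC39A8 thus moved in opposite directions. Their ratio was 7.78 ± 0.696 in DMSO and 100 ± 19.0 in HPC (SD, n = 5), a description only, since the pair was chosen for its opposite changes.

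The other importers changed by less than 1.5-fold. SLC39A3 went from 3.45 ± 0.129 to 4.27 ± 0.194 FPKM, SLC39A6, a plasma membrane importer closely related to SLC39A10, from 12.5 ± 0.298 to 14.8 ± 0.406 and SLC39A13, an importer of internal vesicles, from 1.39 ± 0.0721 to 1.74 ± 0.188 (SD, n = 5). Their log2 fold changes were 0.30, 0.24 and 0.30, and SLC39A13 had overlapping groups and no longer passed when scaled to the non-mitochondrial sum (0.14, limma, adjusted p = 0.0718). SLC39A9 fell from 2.83 ± 0.0754 to 2.40 ± 0.0985 FPKM and SLC39A4, the importer of dietary zinc in the intestine, from 1.32 ± 0.0326 to 1.13 ± 0.0758, log2 fold changes of -0.23 and -0.21. SLC39A4 did not pass after quantile normalization (-0.08, limma, adjusted p = 0.112). SLC39A6 and SLC39A10 moved in opposite directions. SLC39A3 overlaps AC006538.2 on the same strand, SLC39A7 overlaps RXRB and SLC39A9 overlaps ERH on the other, which makes small differences in these genes less certain. SLC39A11 stayed under 1 FPKM, at 0.809 and 0.672, and was not tested, and SLC39A5 had 0 to 8 reads in any library.

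**Figure D3:**
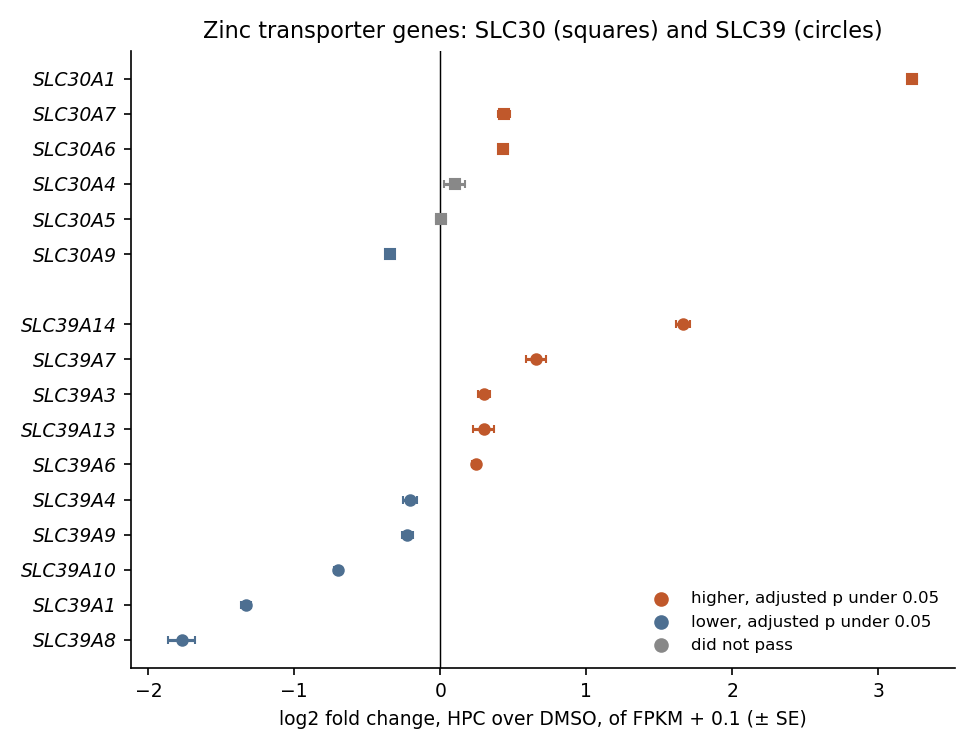
Log2 fold change of HPC against DMSO (x axis, log2(FPKM + 0.1) scale) for the tested SLC30 and SLC39 genes, with bars of 1 standard error. SLC30A1 lies alone at 3.24, while the importers spread from -1.77 (SLC39A8) to 1.66 (SLC39A14).

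Summed over the families, exporter transcripts were higher in every HPC library, and most of the difference lay in SLC30A1. The FPKM of the 9 SLC30 genes added up to 31.8 ± 0.392 in DMSO and 81.3 ± 1.69 in HPC (SD, n = 5), and without SLC30A1 to 26.0 ± 0.386 and 25.7 ± 0.367, where the groups overlapped. With the merged exon lengths of GENCODE 29 in place of the authors' lengths, the sums without SLC30A1 were 58.2 ± 0.837 and 61.7 ± 0.965, and the groups did not overlap. SLC30A1 was 18.3% of the exporter sum in DMSO and 68.3% in HPC. The 12 SLC39 genes added up to 81.7 ± 1.43 and 98.6 ± 4.56 FPKM. Within that sum SLC39A10 went from 40.2% to 20.5% and SLC39A14 from 15.7% to 41.4%. The ratio of exporter to importer FPKM was 0.390 ± 0.00863 in DMSO and 0.825 ± 0.0253 in HPC, with no overlap between the groups. The ratio of SLC30A1 to SLC39A10 ran from 0.159 to 0.193 over the DMSO libraries and from 2.69 to 2.81 over the HPC libraries, again a description of a pair chosen for its opposite changes. These are RNA levels, and transport itself was not measured.

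**Figure D4:**
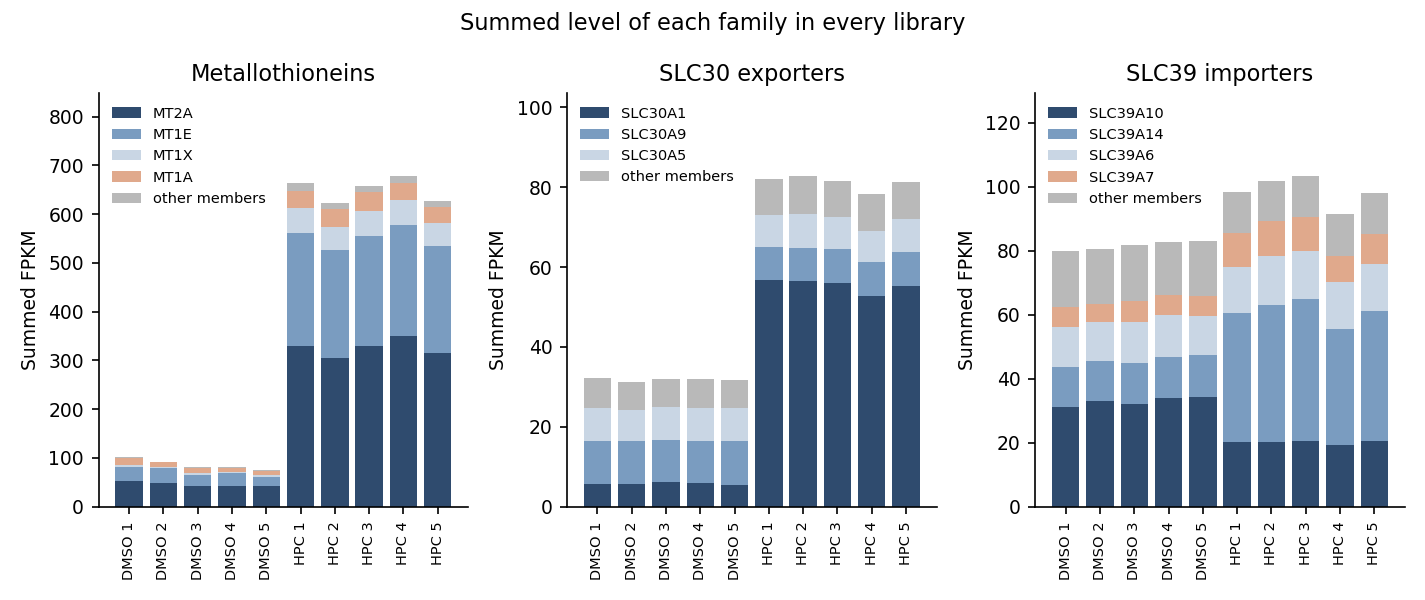
Summed FPKM of metallothioneins, SLC30 exporters and SLC39 importers in each library (y axis), 1 stacked bar per library, coloured by gene with the remaining members of a family in grey. The metallothionein sum lies between 74.4 and 101 FPKM in DMSO and between 623 and 678 in HPC, and the exporter and importer sums are also higher in every HPC library.

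Levels of different genes depend on the gene length used. The length behind each deposited FPKM, read from the size of 1 read, was a median 2.31 times the merged exon length in GENCODE 29 over 15183 genes, and 0.669 to 5.83 times among the members. For SLC39A1 it was 19756 bases against 3388, and for SLC30A1 5893 against 5474. The ratio of a gene's FPKM between the groups does not depend on this length, but the log2(FPKM + 0.1) scale and the filter do for low genes: with merged exon lengths SLC39A11, which was not tested, had 2.07 to 2.41 FPKM in DMSO and 1.55 to 2.09 in HPC, and would pass the filter. In FPKM as deposited the order in DMSO was MT2A, SLC39A10, MT1E, then SLC39A14 and SLC39A6, whose ranges overlapped, then SLC30A9, MT1A and SLC30A5, each overlapping the next. In HPC it was MT2A, MT1E, SLC30A1 and MT1X, with SLC30A1 above MT1X in every library, then SLC39A14 and MT1A, whose ranges overlapped, and SLC39A10. With merged exon lengths MT1X came before SLC30A1 in HPC (89.3 and 59.8 FPKM), SLC39A1 rose from place 10 to place 4 in DMSO, and the ratio of exporters to importers was 0.273 in DMSO and 0.459 in HPC.

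Of the other genes of zinc handling, 15 were in the table and 4 were tested: TRPM7, a channel that admits zinc, and CREBBP and EP300, coactivators, were higher (log2 fold changes 0.21, 0.44 and 0.16) and ZNG1B, a zinc chaperone, was lower (-0.37). None of the 4 reached 1.5-fold. Among those under the filter, and named after their values were seen, the zinc receptor GPR39 had 0.584 ± 0.0881 FPKM in DMSO and 0.141 ± 0.0257 in HPC, ZNF658 had 0.721 and 0.469 and ZNG1F had 0.285 and 0.447, with no overlap between the groups. Without the filter their log2 fold changes were -1.50, -0.53 and 0.51, given without p-values since these genes were picked by their values. In that run 5220 genes passed as higher and 6060 as lower. SLC11A2, TMC6, ZNG1A and ZNG1C, also under the filter, had no overlap between the groups either, while ZNG1E, TMEM163, TMC8 and MT3 did overlap. The share without overlap among all genes under the filter is not given here, so the lack of overlap says little of these genes. The ZNG1 genes are close copies of each other, so their separate levels are uncertain. The neuronal metallothionein MT3 had 0 to 2 reads per library.

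Copper handling genes, whose metal is also bound by metallothioneins, were divided. The table held 17 of them, and 13 were tested, of which 2 were higher, 9 lower and 2 did not pass, with a median log2 fold change of -0.12. Over all tested genes 42.9% were higher and 44.8% lower. The plasma membrane copper importer SLC31A1 rose from 16.3 ± 0.623 to 29.6 ± 1.05 FPKM (log2 fold change 0.85), and the copper exporter ATP7A fell from 1.07 ± 0.0564 to 0.640 ± 0.0345 FPKM (-0.66). These were the only 2 past 1.5-fold, and ATP7A passed the filter only through its DMSO libraries.

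Genes that respond to other metals, oxidants or heat, or are linked to MTF1, were higher in 8 of 10 tested, beside 42.9% of all tested genes, with a median log2 fold change of 0.99. This list was chosen with results of these data known. PGF and SLC40A1, also on it, were under the filter and not tested. PGF had 0.104 and 0.235 FPKM in DMSO and HPC, and SLC40A1 had 0.0529 and 0.0683 FPKM. HMOX1, the enzyme that breaks down haem, rose from 2.69 ± 0.467 to 41.1 ± 1.19 FPKM (log2 fold change 3.90). SLC7A11, the cystine importer, rose by 2.68 and GCLC, which starts glutathione synthesis, by 2.50, both in log2 fold change. TXNRD1, a thioredoxin reductase, rose by 1.63, and the heat shock genes HSPA1A, DNAJB1 and HSPA1B by 1.03, 0.96 and 0.82. Since HSPA1A and HSPA1B are almost the same in sequence, their separate levels are uncertain. SELENOH and SELENOW, small selenoproteins, were lower (-0.42 and -0.40). HMOX1, like MT2A, MT1E, MT1X and MT1A, was highest among the controls in DMSO replicate 1. So were SLC7A11, TXNRD1, DNAJB1, TXN and SELENOW, while GCLC, HSPA1A, HSPA1B, SELENOH, MT1G and MT1M were highest in other controls.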

How the data were processed

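Poly(A) RNA of MIA PaCa-2 cells was read as 150-base pairs, per the labels' protocols. Tools listed in the submitters' processing notes, without roles, are STAR 2.7.7a, fastp 0.23.2 and edgeR, with the build GRCh38.p13. For the read counter, annotation and strand setting nothing is given in the sources used here. FPKM values were deposited by the authors FPKM for 16734 genes in 10 libraries. All 15208 genes above 0 in at least 3 libraries were whole multiples of 1 read within 0.0001 of a read, which gave reads and the length behind each FPKM.

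Values were tested as log2(FPKM + 0.1), which understates the change of low genes, with limma 3.58.1 in R 4.3.3 (trend and robust options) for genes that reached 1 FPKM in 5 or more libraries, without covariates, at an adjusted p of 0.05. Limma's voom on the recovered reads called 3926 genes higher and 4101 lower. The members and lists were chosen with earlier results of these data known. All members are named. Values in every library are given for the tested metallothioneins, MTF1, SLC30A1, SLC39A10 and transporters past 1.5-fold, and the other lists by counts. Ratios of 2 members, sums with merged exon lengths and values of untested genes were chosen after seeing the data. Protein sequences were not analysed here. Alternatives changed pseudocount, filter, scaling, model, replicate block and libraries. Other steps used SciPy 1.17.1, pandas 2.3.3, NumPy 2.4.6 and matplotlib 3.10.9 in Python 3.11.15.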

Additional observations from a re-analysis of the deposited data

Results flagged for a closer look

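SLC39A1 in HPC replicate 4 stood above the other treated libraries, at 2.38 FPKM against 2.23 to 2.25. Its gap to the nearest library was 0.869 of the range of the 5 treated libraries, past Dixon's 95% value of 0.71 for 5 samples. Of 46 groups of 5 libraries examined, 1 was set apart in this way, and chance sets apart about 1 in 20 groups.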

How the results depend on the processing

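The 6 metallothionein rises, MTF1, SLC30A1, SLC39A14 and SLC39A7 stayed higher, and SLC39A10, SLC39A1 and SLC39A8 lower, with an adjusted p under 0.05 (limma) under every alternative in which they were tested. Of these, MT1G, MT1M and SLC39A8 entered the test through 1 group only and so had to differ, and their passing lends no support. With a filter of 5 FPKM, which tests fewer genes, 1969 genes were higher and 1836 lower, SLC30 genes higher were 1, and SLC39 genes were 3 higher and 2 lower. With scaling to the non-mitochondrial sum, SLC30 genes lower were 2, SLC30A4 turned to -0.0585 and SLC30A5 to -0.16. SLC30A5 also turned to -0.0250 with TPM rescaling, -0.00324 with quantile normalization and ran from -0.0181 to 0.0205 when 1 library was left out, below 0 without DMSO replicate 2, HPC replicate 2 or HPC replicate 5. The cause was not tested. SLC30A4 passed as higher after quantile normalization (0.17, limma, adjusted p = 0.0363). The medians of the tested SLC30 and SLC39 genes moved with the filter and the scaling, from 0.00345 to 0.32 and from -0.14 to 0.24. Without a filter, MT1F and MT1H also passed as higher (limma, adjusted p = 0.00542 and 0.00535) and SLC39A11 as lower (limma, adjusted p = 0.0171). With merged exon lengths the HPC to DMSO ratio of the exporter sum was 1.89, of the importer sum 1.12 and of exporters to importers 1.68, and with the non-mitochondrial sum the first 2 were 2.27 and 1.08. Leaving out 1 library at a time gave 3858 to 3908 genes higher and 4037 to 4087 lower. Deviations of libraries with the same replicate number correlated at -0.0593 to 0.199, so the numbers were not taken as pairs, and only replicates 3 and 5 matched best with their own number. The replicate block gave 3892 higher and 4077 lower. Depth limits MT1F, MT1H and SLC39A5, with 12 reads or fewer in any library.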
